A study of Mus musculus with 18 samples.

Results

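The 10 genes described here, Tbx21, Eomes, Stat4, Ifng, Il12a, Il12b, Il12rb1, Il12rb2, Il18 and Il18r1, form the interleukin-12, interleukin-18 and interferon-gamma axis of type 1 immune differentiation. They were chosen as a list of named genes, each represented by its highest-mean probe set among those that name that gene alone, and make up 10 of the 18193 genes measured in this way. Whole lungs of 18 male mice aged 16 weeks were profiled on 1 Affymetrix Mouse 430 2.0 microarray per sample, 3 samples for each of 3 treatments in A/J and in C57BL/6 mice, 6 groups in all. Every mouse, controls included, had been sensitized by 3 weekly intraperitoneal injections of 100 µg of the egg white protein ovalbumin, the allergen of the model, in alum. The PBS groups then inhaled PBS aerosol for 30 min on each of 3 days, and the ovalbumin groups inhaled 1% ovalbumin on the same schedule. The resiquimod groups inhaled 1% ovalbumin and were injected intraperitoneally with 100 µg of resiquimod (S-28463, R-848), a small-molecule Toll-like receptor 7 agonist, 24 h before each challenge. The labels list no group given resiquimod without ovalbumin and no vehicle injection, so resiquimod with ovalbumin could be compared only with groups for which no such injection is listed. The labels call the arrays of a group biological replicates without tying them to separate cages or experiments. A p-value here thus reflects sample-to-sample spread within a group, in which technical variation may also have a part.

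Interleukin-12 is a heterodimer of the Il12a and Il12b chains that is secreted mainly by dendritic cells and macrophages and is sensed by natural killer (NK) cells and T cells through Il12rb1 and Il12rb2. The receptor signals through the transcription factor Stat4, which together with Tbx21 (T-bet) and Eomes drives Ifng, and interleukin-18, sensed by Il18r1, adds to the interferon-gamma response. In lungs of mice with allergic inflammation this axis is known as the counterweight of the type 2 response of interleukin-4 and interleukin-13, and T-bet and Eomes are also the defining factors of NK cell maturation.

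Values are the authors' robust multi-array average (RMA) intensities on the log2 scale, on which 1 unit is a 2-fold difference. The 25th percentile of all values was 3.33 and the median 4.78, and genes near or under 3.33 gave the weakest signals, where a fall could not be seen and a rise may be understated. Lung epithelium markers such as the surfactant genes were high in all 18 arrays (list mean 11.48 to 11.77). Within a group, Pearson's r between arrays lay between 0.987 and 0.997 over all probe sets. Of the 18 arrays, 8 held transcripts of squamous epithelium (list mean 8.01 to 9.36, against 3.87 to 4.55 in the other 10), with 1 or 2 such arrays in each group. In the A/J ovalbumin and C57BL/6 PBS groups only replicate 2 lacked them, so fits without the 8 arrays keep that array alone for each group. In C57BL/6 ovalbumin replicate 2 the Gapdh 3′ probe set exceeded the 5′ one by 0.56, against -0.06 to 0.10 in the other arrays, a sign of RNA quality. The actin 3′ excess was 0.37 to 0.38 in the A/J ovalbumin arrays and 0.39 to 0.57 in the A/J resiquimod arrays, and its part in the changes between these groups was not tested. Nnt, a mitochondrial enzyme that the C57BL/6J substrain lacks in part, read 6.90 to 7.27 in the 3 C57BL/6 PBS arrays and 8.05 to 8.52 in all other arrays, C57BL/6 included. In comparisons with the C57BL/6 PBS group, the difference that Nnt marks and the treatment cannot be told apart.

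Tbx21, Eomes, Stat4 and Ifng were the members with the largest differences between treatments, and their promoters are shown for what these 4 genes share ahead of the start site. The sequences are the 250 bases before each annotated start from RefSeq on build GRCm38.p6, a C57BL/6J genome, printed 5′ to 3′ on the gene's strand. RefSeq promoters were matched for 9 of the 10 genes, 13 promoters in all; Il12rb1 was not matched. Tbx21 lies on the minus strand (chr11:97115332-97115581), and Eomes (chr9:118477939-118478188), Stat4 with its pair of starts (chr1:51986898-51987147 and chr1:52007990-52008239) and Ifng (chr10:118440796-118441045) lie on the plus strand. Capitals mark matches to any of 4 motifs searched on both strands.
Tbx21: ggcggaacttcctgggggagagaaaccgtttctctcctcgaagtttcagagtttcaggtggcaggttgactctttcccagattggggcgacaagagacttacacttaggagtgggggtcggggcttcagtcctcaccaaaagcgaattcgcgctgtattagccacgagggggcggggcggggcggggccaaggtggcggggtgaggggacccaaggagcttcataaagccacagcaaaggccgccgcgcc
Eomes: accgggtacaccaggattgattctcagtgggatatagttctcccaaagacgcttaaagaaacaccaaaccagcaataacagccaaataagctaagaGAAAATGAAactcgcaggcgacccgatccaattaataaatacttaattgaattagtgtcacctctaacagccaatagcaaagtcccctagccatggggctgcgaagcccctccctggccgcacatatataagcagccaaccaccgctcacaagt
Stat4, start 1: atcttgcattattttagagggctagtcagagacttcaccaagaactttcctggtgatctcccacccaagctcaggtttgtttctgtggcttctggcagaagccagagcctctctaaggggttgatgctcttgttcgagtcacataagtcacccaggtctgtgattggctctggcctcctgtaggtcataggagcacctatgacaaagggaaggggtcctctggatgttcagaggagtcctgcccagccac
Stat4, start 2: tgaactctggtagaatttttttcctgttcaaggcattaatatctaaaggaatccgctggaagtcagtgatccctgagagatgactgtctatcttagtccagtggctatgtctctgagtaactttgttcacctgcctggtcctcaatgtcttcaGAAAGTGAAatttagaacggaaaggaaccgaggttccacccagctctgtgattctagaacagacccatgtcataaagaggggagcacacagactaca
Ifng: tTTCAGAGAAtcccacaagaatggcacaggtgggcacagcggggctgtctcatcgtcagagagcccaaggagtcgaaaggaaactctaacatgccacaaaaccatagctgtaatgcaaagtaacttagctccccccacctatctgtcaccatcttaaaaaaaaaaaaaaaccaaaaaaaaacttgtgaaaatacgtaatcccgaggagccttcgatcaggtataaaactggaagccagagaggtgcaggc

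The motifs were the STAT element GAS (TTCNNNGAA), a T-box element (GGTGTGA), an interferon-stimulated element (GAAANNGAA) and an NF-kB element (GGANTTTCC), and no match overlapped another. Eomes held the interferon-stimulated letters GAAAATGAA at 154 to 146 bases before its start, and the Stat4 promoter at start 2 held GAAAGTGAA at 97 to 89 bases before. Among all 32851 promoters of the table, read over the same 250 bases, 7.13% held this element. Ifng held the GAS letters TTCAGAGAA at 249 to 241 bases before its start, where 7.02% of all promoters hold that element. The Tbx21 and first Stat4 windows held none of the 4 motifs, and no member's window held the T-box or NF-kB letters, which 3.33% and 1.07% of promoters hold. Of the promoters not shown, Il12rb2 held 1 GAS match (TTCTCAGAA, 123 to 115 bases before its start) and the third of the 3 Il18r1 promoters held 2, while those of Il12a, Il12b and Il18 held none. A match describes letters and is not a bound site.

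With resiquimod, Tbx21, Eomes and Stat4 rose in both strains, and neither Ifng nor the ligand and receptor genes of the axis passed the test against ovalbumin. Against the ovalbumin group, 3 of the 10 genes were called higher in A/J and 3 in C57BL/6, where 3.37% and 4.62% of all 45037 probe sets were called higher, and no member was called lower, where 3.75% and 3.20% of probe sets were. A call means an adjusted p under 0.05 in limma's moderated test with Benjamini-Hochberg adjustment over all probe sets. The median change of the 10 genes was 0.29 in A/J and 0.35 in C57BL/6, beside -0.00 and -0.02 over all genes. Against the PBS group, which reuses the resiquimod arrays, the same 3 genes were called higher in A/J (background 4.10%) and 4 genes in C57BL/6 (background 7.09%), the fourth being Ifng. Ovalbumin alone gave 1 call in A/J, a lower Il18r1, where 3.15% of probe sets were called in either direction. In C57BL/6 it gave no call among the members, where 1.06% were called; by limma's unadjusted p under 0.05 there were 2, Il12a and Il18.

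Tbx21 (Entrez Gene 57765) encodes T-bet, the T-box factor that commits T helper cells to the type 1 fate and that NK cells need for maturation. In A/J its log2 level was 3.41, 3.24 and 3.24 in the PBS arrays, 3.54, 3.14 and 3.60 in the ovalbumin arrays, and 5.55, 5.66 and 5.05 in the resiquimod arrays. In C57BL/6 the PBS arrays read 3.38, 3.54 and 3.10, the ovalbumin arrays 3.48, 3.41 and 3.43, and the resiquimod arrays 6.48, 5.97 and 6.42. All 12 arrays without resiquimod thus lay near the 25th percentile of values, and each of the 6 resiquimod arrays lay above every one of them. The rise over ovalbumin was 2.00 ± 0.16 (SE, n = 3 per group) or 3.99-fold in A/J and 2.85 ± 0.16 or 7.20-fold in C57BL/6, with limma adjusted p = 9.61e-07 and 1.53e-08. Since the starting values sat among the weakest signals, these folds may be understated. Ovalbumin differed from PBS by 0.13 ± 0.16 in A/J and 0.10 ± 0.16 in C57BL/6, within the spread of the arrays (limma adjusted p = 0.807 and 0.903), with 95% intervals from -0.22 to 0.48 and from -0.25 to 0.45.

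Eomes (Entrez Gene 13813), the T-box relative of T-bet in NK cells and CD8 T cells, moved the same way by less. Its levels in A/J were 4.11, 3.63 and 4.03 with PBS, 4.10, 3.84 and 4.07 with ovalbumin, and 5.18, 4.93 and 4.59 with resiquimod. The C57BL/6 arrays gave 3.87, 3.88 and 3.98 with PBS, 4.14, 4.13 and 3.93 with ovalbumin, and 5.55, 5.47 and 5.86 with resiquimod. Resiquimod arrays lay above all other arrays of their strain, and the A/J and C57BL/6 resiquimod groups did not overlap. Over ovalbumin the rise was 0.90 ± 0.15 in A/J (1.86-fold, limma adjusted p = 0.000995) and 1.56 ± 0.15 in C57BL/6 (2.95-fold, adjusted p = 4.7e-06). A second Eomes probe set gave 1.49 ± 0.25 and 1.73 ± 0.25, both called, so the size in A/J depended on the probe set by more than 1.5 times. Ovalbumin against PBS differed by 0.08 ± 0.15 and 0.16 ± 0.15 and was not called in either strain.

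Stat4 (Entrez Gene 20849), the factor phosphorylated at the interleukin-12 receptor, was the third gene that rose. In A/J its levels were 4.48, 4.72 and 4.51 with PBS, 4.63, 4.64 and 4.87 with ovalbumin, and 5.56, 5.61 and 5.24 with resiquimod. In C57BL/6 they were 4.59, 4.94 and 4.67 with PBS, 4.70, 4.74 and 5.19 with ovalbumin, and 6.42, 6.25 and 6.39 with resiquimod. The resiquimod arrays were again the 3 highest of each strain, and all C57BL/6 resiquimod arrays lay above the A/J ones. The change over ovalbumin was 0.76 ± 0.14 in A/J (1.69-fold, limma adjusted p = 0.00214) and 1.48 ± 0.14 in C57BL/6 (2.79-fold, adjusted p = 3.63e-06), with 0.15 ± 0.14 and 0.14 ± 0.14 for ovalbumin over PBS, neither called. Without the 8 arrays that hold squamous transcripts, which leaves 1 A/J ovalbumin array, the A/J rises were 0.79 for Stat4 and 0.92 for Eomes but were no longer called (limma adjusted p = 0.143 and 0.0998), while that of Tbx21 was 2.22 and called.

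**Figure D1:**
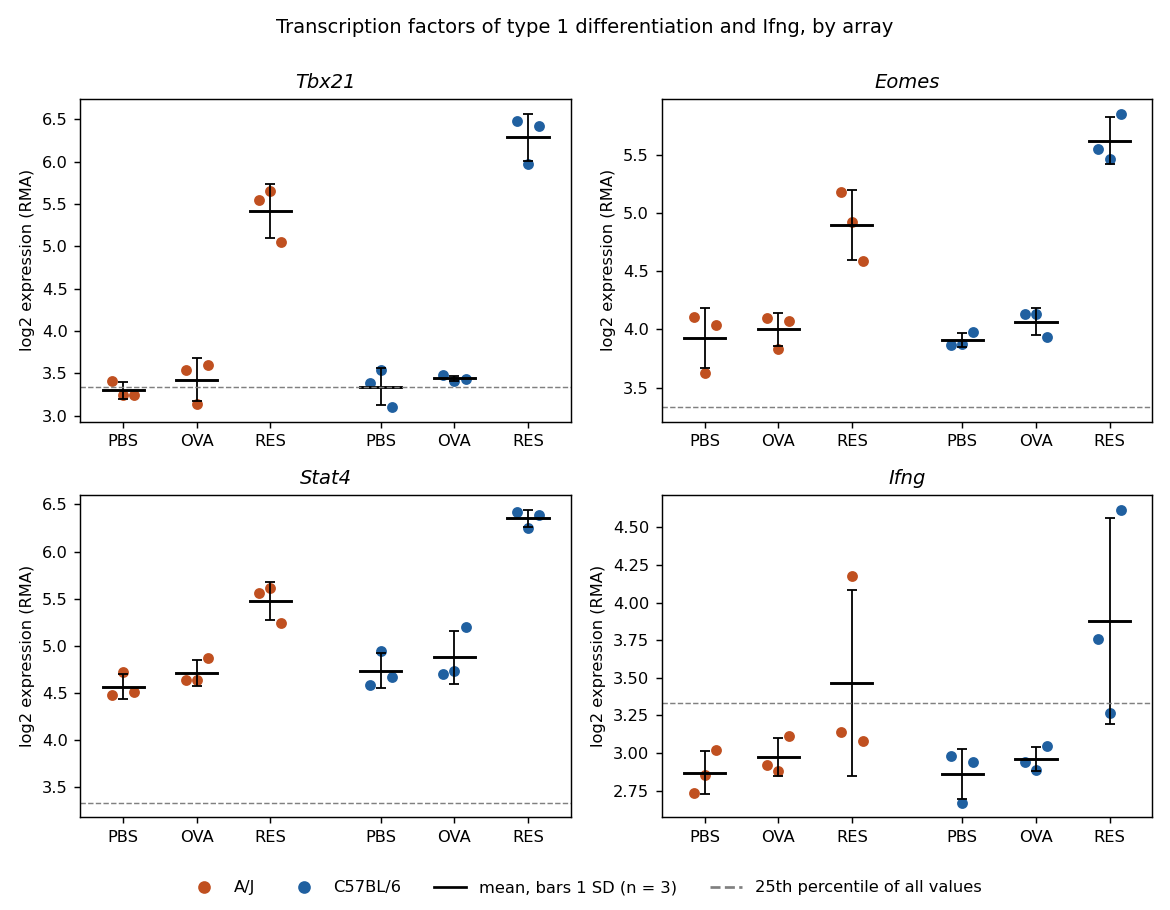
Log2 expression of Tbx21, Eomes, Stat4 and Ifng in each of the 18 arrays, by strain (A/J orange, C57BL/6 blue) and treatment (PBS, OVA for ovalbumin, RES for resiquimod with ovalbumin), with group mean and SD bars (n = 3) and the 25th percentile of all values (3.33) as a dashed line. The resiquimod arrays stand above the others for Tbx21, Eomes and Stat4 in both strains, while Ifng has 1 high array of 3 in A/J (4.18).

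Without resiquimod no strain difference in these 3 genes was called. The largest of the 6 differences in PBS and ovalbumin lungs was -0.17 ± 0.14 (A/J minus C57BL/6) for Stat4 with PBS, not called. Tbx21 read 3.10 to 3.60 in the PBS and ovalbumin arrays, among the weakest signals, where a strain difference may not be seen. Its missing call there thus does not show equal levels in the strains. With resiquimod all 3 were lower in A/J than in C57BL/6, with differences of -0.87 ± 0.16 for Tbx21 (1.83-fold, limma adjusted p = 0.00141), -0.73 ± 0.15 for Eomes (adjusted p = 0.00242) and -0.88 ± 0.14 for Stat4 (adjusted p = 0.000225). The second Eomes probe set put the Eomes difference at -0.51 ± 0.25, which was not called (limma adjusted p = 0.212). Between resiquimod lungs of the strains 4 members were called, Il18r1 being the fourth, where 14.0% of all probe sets were called in either direction. The test of whether resiquimod acted differently in the strains, an interaction term, called 0 of the 10 members, where it called 0.839% of probe sets; 4 of them, the 3 genes named here and Il12rb1, passed at limma's unadjusted p under 0.05. Its estimates (A/J minus C57BL/6 change) were -0.85 ± 0.23 for Tbx21 (95% interval -1.35 to -0.36, limma adjusted p = 0.103), -0.66 ± 0.21 for Eomes (adjusted p = 0.157) and -0.72 ± 0.19 for Stat4 (adjusted p = 0.095). Leaving out C57BL/6 ovalbumin replicate 3, the highest Stat4 value without resiquimod, gave -0.88 for Stat4 and a call (limma adjusted p = 0.0328).

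Markers of NK cells and of other cell types moved in the same comparisons as these 3 genes. Over all probe sets, 3.37% were called higher with resiquimod than with ovalbumin in A/J and 4.62% in C57BL/6. Of 8 measured NK cell markers, 6 rose with resiquimod in A/J and 7 in C57BL/6, and the mean of the list was 3.76 to 3.81 in A/J ovalbumin arrays against 5.29 to 5.56 with resiquimod, and 4.30 to 4.51 against 6.79 to 7.10 in C57BL/6. Ncr1, the activating receptor NKp46 that defines NK cells, rose by 2.60 ± 0.14 in A/J and 2.36 ± 0.14 in C57BL/6, and the cytotoxic granule protease Gzma rose by 4.59 ± 0.13 and 4.22 ± 0.13. In the A/J resiquimod group replicate 3 was the lowest array for Tbx21, Eomes, Stat4 and the NK list, and for the T cell list too (4.60, against 4.91 and 4.95). The 10 measured T cell markers did not move as a block: 1 fell in A/J (Cd3e by 0.30 ± 0.08, a call gone in 5 of 18 refits without 1 array) and 3 rose in C57BL/6 (Cd247, Cd28 and Cd8b1, with the Cd28 call gone in 4 such refits). The T cell list mean was 4.60 to 4.95 in A/J and 5.11 to 5.33 in C57BL/6 resiquimod arrays and 4.80 to 5.16 in the other 12. Between resiquimod lungs of the strains, 5 of the 8 NK cell markers were lower in A/J than in C57BL/6 (Klrd1, Klrk1, Klre1, Klra8 and Gzma), and so were 3 of the 10 T cell markers and 7 of 14 type 1 effector genes. In that comparison 14.0% of all probe sets were called in either direction. Gzma was -1.59 ± 0.13 in A/J minus C57BL/6, while Ncr1 read 0.36 ± 0.14 higher in A/J and Klrc1, an NK receptor chain, 0.04 ± 0.13 higher, neither called. The strains' NK list means also stood apart without resiquimod, at 3.76 to 4.02 in A/J and 4.30 to 4.58 in C57BL/6. Klra8, which enters these means and the count of lower markers, was among the weakest signals in every A/J array. Of 4 measured B cell markers, 3 rose in C57BL/6 (Cd79a, Cd79b and Ms4a1, by 1.53 to 1.98), and none was called in A/J, where they differed by 0.65 to 0.76. Of 4 measured neutrophil markers, 2 rose in A/J (S100a8 by 2.39 ± 0.38 and S100a9 by 2.26 ± 0.40) and 3 in C57BL/6 (S100a8 by 1.35, S100a9 by 1.38 and Cxcr2 by 0.54, calls gone in 5, 11 and 6 of 18 refits without 1 array). Without the arrays with squamous transcripts all 5 of these neutrophil calls were lost and the 3 B cell calls held. Of 10 lung epithelium markers, Epcam, Cdh1 and Ager fell in C57BL/6 by 0.41, 0.36 and 0.22, the last a call gone in 14 such refits, and Foxj1 of ciliated cells rose in A/J by 0.46, a call gone in 12. The part of NK cell number or of these other cells in the rises of Tbx21, Eomes and Stat4 and in their strain difference was not tested, and in whole lung more cells of a type and more RNA per cell cannot be told apart.

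Ifng (Entrez Gene 15978), the type 1 cytokine itself, was near or under the 25th percentile of values in most arrays. The A/J arrays read 2.74, 2.86 and 3.02 with PBS, 2.92, 2.88 and 3.12 with ovalbumin, and 3.14, 4.18 and 3.08 with resiquimod. The C57BL/6 arrays read 2.98, 2.67 and 2.94 with PBS, 2.94, 2.89 and 3.05 with ovalbumin, and 3.76, 3.26 and 4.62 with resiquimod. In A/J only replicate 2 stood out, and the resiquimod and ovalbumin groups overlapped; in C57BL/6 the 3 resiquimod arrays lay above the rest but spanned more than 1 log2 unit. Over ovalbumin the change was 0.50 ± 0.28 in A/J (limma adjusted p = 0.36) and 0.92 ± 0.28 in C57BL/6 (1.89-fold, adjusted p = 0.054), neither called. Over PBS it was 1.02 ± 0.28 in C57BL/6 and called (limma adjusted p = 0.0229), and 0.60 ± 0.28 in A/J and not called (adjusted p = 0.235). Single arrays decided the C57BL/6 calls. The call over PBS was lost without C57BL/6 PBS replicate 2 (0.92), PBS replicate 3 (1.06) or resiquimod replicate 3 (0.65). In these fits the limma adjusted p ran from 0.0501 to 0.123. Without the arrays with squamous transcripts, where PBS replicate 2 stands alone for its group, the call was also lost and the rise was 1.52. The change over ovalbumin was called without C57BL/6 resiquimod replicate 2 (1.23) and, at 0.92, without A/J resiquimod replicate 2 or 3, which enter the shared estimate of spread (limma adjusted p from 0.0117 to 0.0467). It was 0.55 without C57BL/6 resiquimod replicate 3 (limma adjusted p = 0.25), and the A/J change over ovalbumin was 0.14 without A/J resiquimod replicate 2 (adjusted p = 0.854). Ovalbumin moved Ifng by 0.10 ± 0.28 in each strain, with 95% intervals from -0.49 to 0.69.

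Of the ligands, Il12a (Entrez Gene 16159), the p35 chain of interleukin-12, read 4.82, 4.66 and 4.79 in A/J PBS arrays, 4.37, 4.39 and 4.35 with ovalbumin, and 4.70, 4.56 and 4.26 with resiquimod. In C57BL/6 it read 4.80, 4.02 and 4.61 with PBS, 4.23, 3.92 and 4.05 with ovalbumin, and 4.16, 3.94 and 4.10 with resiquimod. The ovalbumin arrays of A/J lay below all PBS arrays, whereas in C57BL/6 the groups overlapped through PBS replicate 2. Ovalbumin minus PBS was -0.39 ± 0.15 in A/J (limma adjusted p = 0.221) and -0.41 ± 0.15 in C57BL/6 (adjusted p = 0.315), neither called over the whole array. In a fit to the 6 A/J arrays alone the former was called (limma adjusted p = 0.0426), and without C57BL/6 PBS replicate 2 the latter was -0.64 and called (adjusted p = 0.0174), while without PBS replicate 1 it was -0.25 (adjusted p = 0.712). Without the 8 arrays with squamous transcripts the C57BL/6 difference was -0.04, but there the lowest PBS array, replicate 2 (4.02), stands alone for its group. Resiquimod minus ovalbumin was 0.14 ± 0.15 in A/J and 0.00 ± 0.15 in C57BL/6, and against PBS the C57BL/6 value was -0.41 ± 0.15 (not called). That value was -0.25 without PBS replicate 1 and -0.64, called, without PBS replicate 2. It was 0.11 without the arrays with squamous transcripts, again against PBS replicate 2 alone. Between strains Il12a was higher in A/J resiquimod lungs by 0.44 ± 0.15 (limma adjusted p = 0.0715), a difference called without A/J resiquimod replicate 3 (0.56) and, at 0.44, without C57BL/6 PBS replicate 1 or 2. Without the arrays with squamous transcripts it was 0.28, and the difference in PBS lungs was 0.70, with replicate 2 the lone C57BL/6 PBS array.

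Il12b (Entrez Gene 16160), the p40 chain shared with interleukin-23, stayed between 3.29 and 3.67 in all 18 arrays. Its resiquimod change was -0.01 ± 0.08 in A/J, with a 95% interval from -0.19 to 0.16, and 0.03 ± 0.08 in C57BL/6, from -0.14 to 0.20. The ovalbumin change was 0.04 ± 0.08 and 0.07 ± 0.08. A second probe set of the gene read 2.76 to 3.52 and was not called in any comparison either. Both probe sets lay near or under the 25th percentile of values, so a transcript present in few cells may not be seen.

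Il18 (Entrez Gene 16173), an interleukin-1 family cytokine that epithelium and macrophages hold as a precursor, gave a strong signal throughout. Its A/J levels were 8.41, 8.43 and 8.46 with PBS, 8.19, 8.18 and 8.24 with ovalbumin, and 8.87, 8.22 and 8.52 with resiquimod. Its C57BL/6 levels were 8.06, 7.85 and 8.19 with PBS, 8.11, 7.19 and 7.54 with ovalbumin, and 7.92, 8.36 and 7.89 with resiquimod. The A/J PBS and ovalbumin arrays were tight and apart, while the C57BL/6 ovalbumin arrays were the most scattered, with replicate 2, the array of the high Gapdh 3′ excess, lowest. None of the treatment changes was called: ovalbumin minus PBS was -0.23 ± 0.19 in A/J and -0.42 ± 0.19 in C57BL/6, and resiquimod minus ovalbumin was 0.33 ± 0.19 (limma adjusted p = 0.377) and 0.44 ± 0.19 (adjusted p = 0.192). The last value rested on single arrays: it was 0.69 and called without C57BL/6 ovalbumin replicate 1 (limma adjusted p = 0.0234), and 0.23 without replicate 2 of that group (adjusted p = 0.585). Il18 read higher in A/J than in C57BL/6 in each treatment, by 0.40 ± 0.19, 0.59 ± 0.19 and 0.48 ± 0.19, with no call (limma adjusted p = 0.266, 0.0698 and 0.121). Without C57BL/6 ovalbumin replicate 1 the second was 0.84 and the third 0.48, both called (limma adjusted p = 0.005 and 0.0474). The second fell to 0.38 without C57BL/6 ovalbumin replicate 2 and the third to 0.31 without A/J resiquimod replicate 1, neither called (limma adjusted p = 0.307 and 0.384). Within groups, arrays with squamous transcripts had the higher Il18 in 5 of 6 groups, by 0.33 on average (-0.04 to 0.74), and the part of that tissue in the Il18 values was not tested further than the fits without those arrays. There the ovalbumin strain difference was 0.82, with a lone A/J ovalbumin array.

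**Figure D2:**
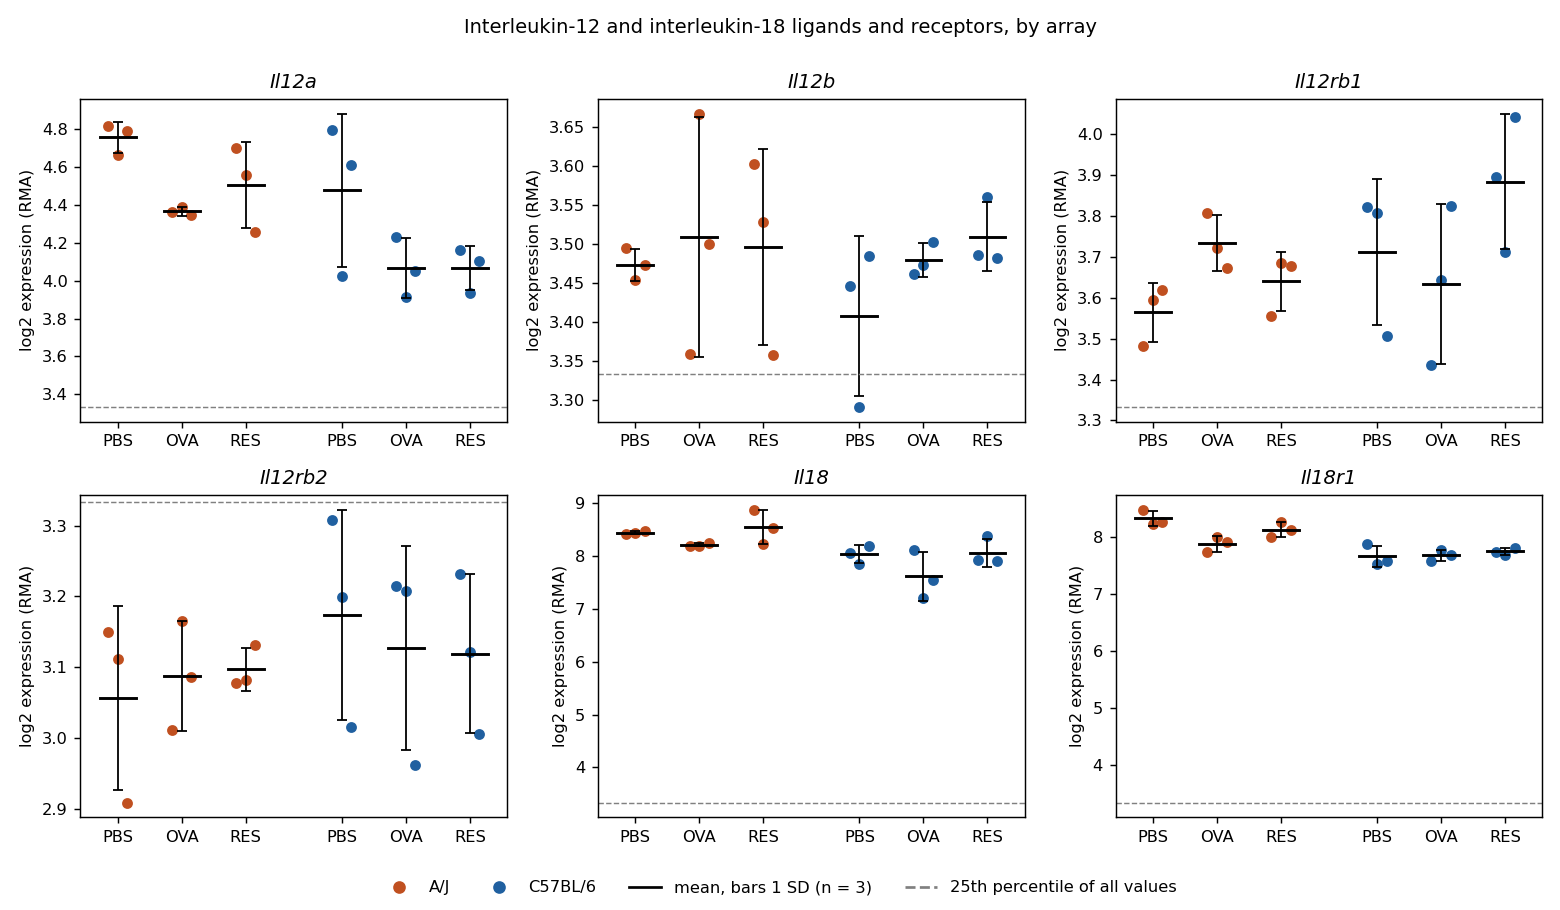
Log2 expression of Il12a, Il12b, Il12rb1, Il12rb2, Il18 and Il18r1 in each of the 18 arrays, with groups, bars and dashed line as for the transcription factors; each panel has its own scale. Il12b spans 3.29 to 3.67 and Il12rb2 lies under the 25th percentile (3.33), while Il18r1 has its highest group mean in A/J PBS (arrays at 8.24 to 8.49).

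Of the receptor chains, Il12rb1 (Entrez Gene 16161), the subunit shared by the interleukin-12 and interleukin-23 receptors, ranged from 3.43 to 4.04. Its A/J group means ran from 3.56 ± 0.07 (SD, n = 3) with PBS through 3.64 ± 0.07 with resiquimod to 3.73 ± 0.07 with ovalbumin, and its highest group was C57BL/6 resiquimod with 3.90, 3.71 and 4.04. Resiquimod minus ovalbumin was -0.09 ± 0.11 in A/J and 0.25 ± 0.11 in C57BL/6 (limma adjusted p = 0.19), neither called. Il12rb2 (Entrez Gene 16162), the signalling subunit that marks type 1 T cells, read 2.91 to 3.31, under the 25th percentile in every array. Its resiquimod changes were 0.01 ± 0.09 and -0.01 ± 0.09, at a level where only a rise could have been seen.

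Il18r1 (Entrez Gene 16182), the ligand-binding chain of the interleukin-18 receptor, was called between strains and with ovalbumin in A/J. The A/J arrays read 8.49, 8.24 and 8.28 with PBS, 7.73, 8.0 and 7.91 with ovalbumin, and 8.01, 8.27 and 8.12 with resiquimod. The C57BL/6 arrays read 7.88, 7.53 and 7.59 with PBS, 7.59, 7.77 and 7.69 with ovalbumin, and 7.75, 7.68 and 7.82 with resiquimod. All A/J PBS arrays lay above all ovalbumin arrays of the strain, and the fall of 0.45 ± 0.10 was called (1.37-fold, limma adjusted p = 0.0229). That call was lost without A/J PBS replicate 1 (-0.38), PBS replicate 3 (-0.48), ovalbumin replicate 1 (-0.38) or ovalbumin replicate 3 (-0.47), with limma adjusted p from 0.053 to 0.114, and without the arrays with squamous transcripts (-0.26). In C57BL/6 the ovalbumin change was 0.02 ± 0.10, and the difference between the strains' ovalbumin changes, -0.47 ± 0.15, was not called (limma adjusted p = 0.695). None of the members was called in that interaction, where 0.0466% of probe sets were, and 1, Il18r1, passed at limma's unadjusted p under 0.05. In PBS lungs Il18r1 was 1.59-fold higher in A/J (0.67 ± 0.10, limma adjusted p = 0.000302) and was the 1 member called, against a background of 8.54% in either direction. The C57BL/6 PBS arrays in that comparison are those with the low Nnt. In ovalbumin lungs no member was called between strains, against 8.85%, with 1 (Il18) at limma's unadjusted p under 0.05, and Il18r1 differed by 0.20 ± 0.10. In resiquimod lungs Il18r1 was higher in A/J by 0.38 ± 0.10 (limma adjusted p = 0.0186), a call lost without A/J resiquimod replicate 2 (0.31) or C57BL/6 resiquimod replicate 1 (0.38) or 2 (0.35), with adjusted p from 0.052 to 0.0882. Its resiquimod changes, 0.25 ± 0.10 in A/J and 0.07 ± 0.10 in C57BL/6, were not called.

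**Figure D3:**
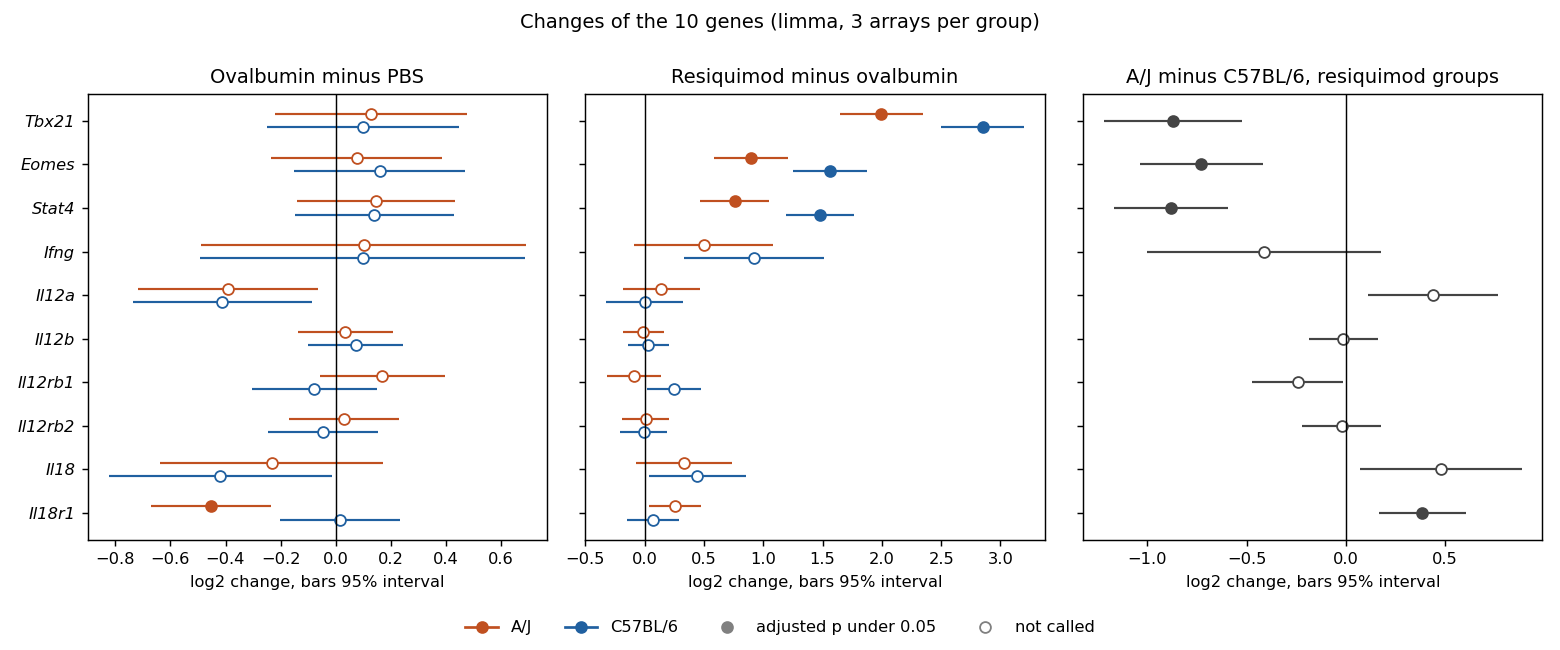
Log2 change of each of the 10 genes with its 95% interval for ovalbumin minus PBS, resiquimod minus ovalbumin (A/J orange, C57BL/6 blue) and A/J minus C57BL/6 in resiquimod lungs; filled points have a limma adjusted p under 0.05 and each panel has its own scale. Tbx21 (2.00 and 2.85), Eomes and Stat4 are the filled points for resiquimod, and the same 3 lie below 0 between strains.

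Of the 7 lists of other pathway genes, that of type 1 effector genes had the highest median change. The share of all probe sets called higher with resiquimod than with ovalbumin was 3.37% in A/J and 4.62% in C57BL/6. Of its 14 measured members, 8 rose with resiquimod in A/J and 9 in C57BL/6, with list medians of 0.97 and 1.50 against -0.00 and -0.02 over all genes; 7 of the 8 and all 9 calls held in each of the 18 refits without 1 array, and 3 of the 8 and 2 of the 9 were lost without the 8 arrays with squamous transcripts. The serine protease Gzmb rose by 3.52 ± 0.18 in A/J and 4.31 ± 0.18 in C57BL/6, and perforin, Prf1, which opens the target membrane, by 3.24 ± 0.20 and 3.63 ± 0.20. The chemokine Ccl5 rose by 2.95 ± 0.15 and 3.46 ± 0.15, and Klrg1, an inhibitory receptor of mature NK and effector T cells, by 1.89 ± 0.15 and 2.50 ± 0.15. Several of these genes are also made by NK cells, whose markers rose in the same arrays, and the part of NK cells in the rises was not tested. Ovalbumin alone gave no limma call among the 14 in either strain, with 0 in A/J and 3 in C57BL/6 (Lta, Klrg1 and Il2rb) at an unadjusted p under 0.05. It gave calls in either direction for 3.15% of probe sets in A/J and 1.06% in C57BL/6, so no call among 14 genes says little.

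Among the other cytokines and receptors of the interleukin-12 family, 4 of 6 were measured, and Ebi3, the chain shared by interleukin-27 and interleukin-35, rose by 1.16 ± 0.13 in A/J and 1.76 ± 0.13 in C57BL/6. The interleukin-27 receptor chain Il27ra fell by 0.41 ± 0.12 in A/J, a call gone in 11 of 18 refits without 1 array, and the shared receptor Il6st fell by 0.43 ± 0.08 in C57BL/6. Of the 6 genes that process or control interleukin-18, 1 rose in A/J and 4 in C57BL/6, where 3.37% and 4.62% of all probe sets were called higher. Il18rap, the signalling chain of its receptor, rose by 0.84 ± 0.08 and 1.33 ± 0.08, with Pycard (1.09 ± 0.24) and Casp1 (0.88 ± 0.14) of the inflammasome and the decoy receptor Il18bp (0.65 ± 0.11) called in C57BL/6 and not in A/J. For these last 3 the difference between strains was not called in the interaction.

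Of 11 interferon-gamma receptor and target genes, 1 was called higher and 1 lower with resiquimod than with ovalbumin in A/J, where 3.37% and 3.75% of probe sets were. So few A/J calls say little about the list. In C57BL/6 5 were called higher, where 4.62% of probe sets were. Most of these calls were lost without the arrays with squamous transcripts. In the C57BL/6 comparison that fit drops ovalbumin replicate 1 and resiquimod replicate 2, and neither group is left with a lone array. The receptor chain Ifngr1 rose by 0.35 ± 0.06 in both strains. Cxcl10, a chemokine induced by interferons of either type, fell by 1.17 ± 0.27 in A/J, a call lost without A/J ovalbumin replicate 2 (-1.05) or A/J resiquimod replicate 3 (-0.93). In C57BL/6 the chemokine Cxcl9 rose by 1.52 ± 0.17, the checkpoint ligand Cd274 by 0.69 ± 0.13 and the guanylate-binding protein Gbp2 by 0.57 ± 0.12. Ovalbumin without resiquimod had already raised Cxcl9 by 3.10 ± 0.17 in A/J and 2.35 ± 0.17 in C57BL/6, and Cxcl10 by 2.10 ± 0.27 and 1.68 ± 0.27. Both comparisons use the ovalbumin arrays, so the values are given side by side.

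Of the 8 measured kinases, adaptors and inhibitors of JAK-STAT and MyD88 signalling, none was called higher with resiquimod than with ovalbumin, 1 fell in A/J (Socs1) and 2 fell in C57BL/6 (Socs1 and Jak2, the latter a call gone in 15 of 18 refits without 1 array). Of all probe sets, 3.37% were called higher and 3.75% lower in A/J, and 4.62% and 3.20% in C57BL/6. At such shares, few or no calls in a list of 7 or 8 genes say little about the list. The feedback inhibitor Socs1 rose with ovalbumin by 0.79 ± 0.12 in A/J and 0.73 ± 0.12 in C57BL/6. It fell with resiquimod by 0.71 ± 0.12 in A/J and 0.48 ± 0.12 in C57BL/6, the latter a call lost without C57BL/6 ovalbumin replicate 2 (-0.37) or resiquimod replicate 2 (-0.39). The Jak2 call and all of these Socs1 calls, with ovalbumin and with resiquimod, were lost without the arrays with squamous transcripts. Against PBS the adaptor Myd88 was higher with resiquimod by 0.35 ± 0.09 in A/J and 0.40 ± 0.09 in C57BL/6 and the kinase Tyk2 by 0.26 ± 0.08 in C57BL/6, with the A/J Myd88 call gone in 3 and the Tyk2 call in 5 of 18 refits without 1 array. The Myd88 calls of both strains and the Tyk2 call were also lost without the arrays with squamous transcripts. Of 8 other transcription factors of type 1 cells, Bhlhe40, a regulator of cytokine production in T helper cells, fell by 0.97 ± 0.08 and 0.67 ± 0.08, and the homeobox factor Hlx fell by 0.48 ± 0.10 in A/J. Runx3, the partner of T-bet at the Ifng gene, rose by 0.93 ± 0.15 in C57BL/6 and was the 1 factor of the 8 called higher than with ovalbumin. Nfil3, a factor needed for NK cell development, was higher than with PBS by 0.77 ± 0.15 in A/J and 0.53 ± 0.15 in C57BL/6, the latter a call gone in 4 of 18 refits without 1 array, and had been raised by ovalbumin alone in A/J (0.90 ± 0.15). Bhlhe40 had risen with ovalbumin by 0.66 ± 0.08 and 0.47 ± 0.08. The ovalbumin calls of Nfil3 and Bhlhe40 were also lost without the arrays with squamous transcripts. That fit leaves a lone A/J ovalbumin array and a lone C57BL/6 PBS array. Of 7 type 2 counterparts, 1 fell in A/J, Il4 by 0.49 ± 0.11, a call lost without A/J ovalbumin replicate 3 (-0.41) or resiquimod replicate 2 (-0.42), and none was called in C57BL/6, where 1 (Il5) passed at limma's unadjusted p under 0.05.

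**Figure D4:**
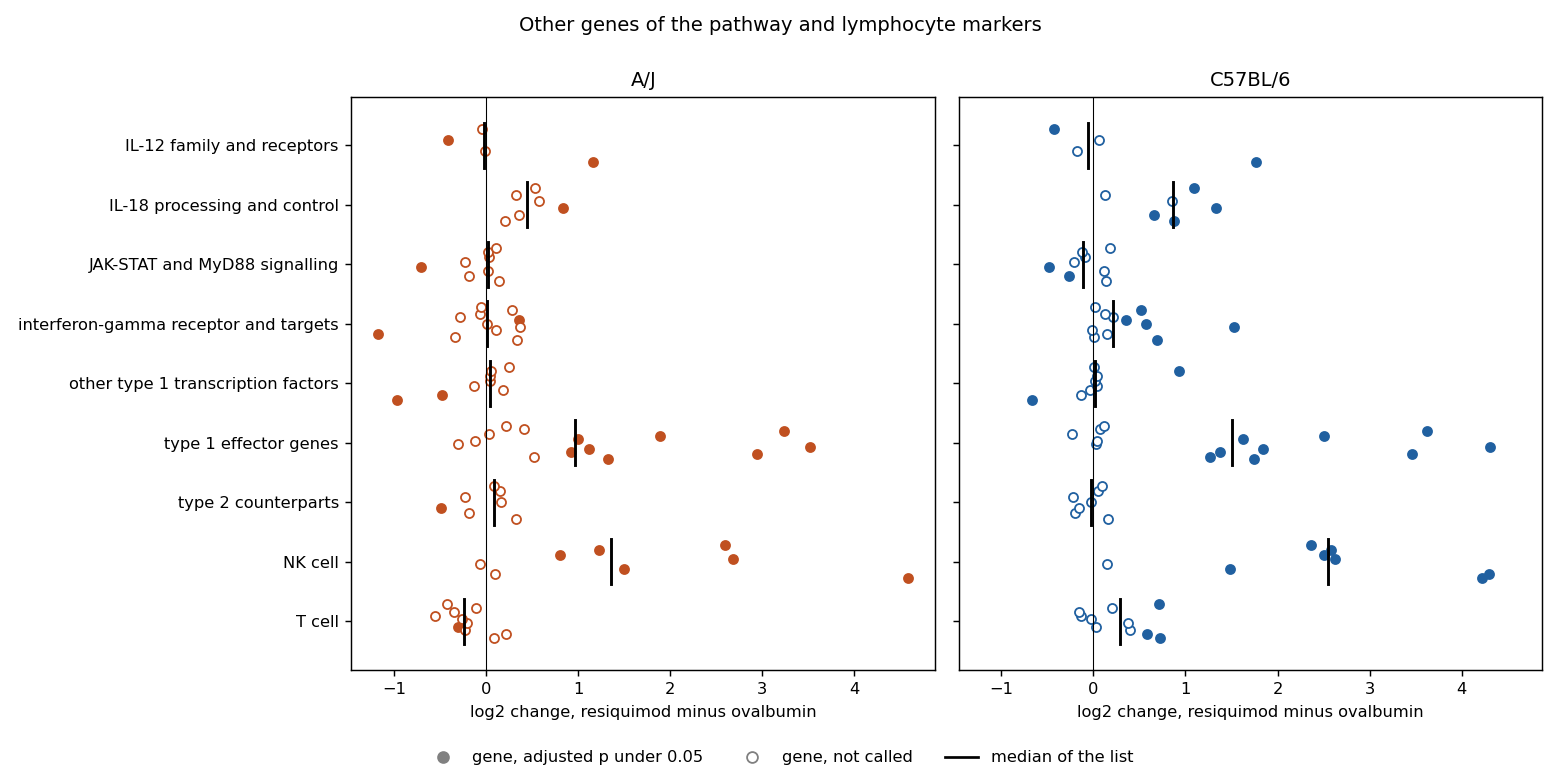
Log2 change, resiquimod minus ovalbumin, of each measured gene of the pathway lists and of the NK and T cell marker lists in A/J and C57BL/6; filled points have a limma adjusted p under 0.05, and black bars are list medians. Type 1 effector genes (medians 0.97 and 1.50) and NK cell markers (1.36 and 2.54) lie to the right. The T cell medians lie to the left of 0 in A/J (-0.24) and to the right in C57BL/6 (0.29), and most signalling genes lie near 0.

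Macrophage and dendritic cell markers, of the cells that make interleukin-12 and interleukin-18, also moved. With resiquimod 6 of 10 macrophage and monocyte markers rose in A/J and 8 in C57BL/6, where 3.37% and 4.62% of probe sets were called higher. The list means were 9.08 to 9.38 and 9.15 to 9.21, against 8.47 to 8.58 and 8.25 to 8.31 with ovalbumin. Of the resiquimod calls, 3 of the 6 and 7 of the 8 held in each of the 18 refits without 1 array. Ovalbumin alone had raised 6 of the 10 markers in A/J and 3 in C57BL/6, where 3.15% and 1.06% of probe sets were called in either direction. These ovalbumin calls and some of the resiquimod calls were lost without the arrays with squamous transcripts, a fit that leaves a lone A/J ovalbumin array and a lone C57BL/6 PBS array. Of 6 measured markers of type 1 dendritic cells, 5 were lower with resiquimod than with ovalbumin in A/J and 3 in C57BL/6, where 3.75% and 3.20% of probe sets were; 3 of the 5 and none of the 3 calls were lost without the arrays with squamous transcripts. The transcription factor Batf3 fell by 1.38 ± 0.11 and 1.15 ± 0.11, whereas ovalbumin alone had raised it by 1.44 ± 0.11 and 1.27 ± 0.11, and with resiquimod it differed from PBS by 0.06 ± 0.11 and 0.11 ± 0.11, neither called. Against PBS 2 of the 6 markers, Itgae and Cadm1, were lower in each strain, where 3.98% and 5.32% of probe sets were called lower. Il12a and Il12b were not called in the same comparisons, and the part of these cells in their values was not tested.

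The genes whose profiles lay nearest to each of the 3 risen members were found by the root mean square difference of log2 values over the 18 arrays, each gene centred on its own mean. Nearest to Tbx21 were Klrg1 (0.22 log2 units), the GTPase Gimap7 (0.27) and the cytotoxic lymphocyte protease Ctsw (0.30), against an SD of 1.25 for Tbx21 itself over the arrays. Nearest to Eomes were Il18rap (0.19), the endolysosomal nuclease Pld4 (0.20) and the interleukin-10 receptor chain Il10ra (0.20), against an SD of 0.68. Stat4 lay nearest to Il10ra (0.19), Il18rap (0.20) and the paired receptor Pilrb1 (0.20), against an SD of 0.66. The 18 arrays share the group structure, and this measure mainly reads the rise in the resiquimod groups.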

How the data were processed

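The deposited table holds log2 expression values that the authors made with RMA and the affy package, per the submitters' processing notes (no version named); RMA corrects background, normalizes between arrays and summarises probes into probe sets. Per the labels' protocols, TRIzol extracts of whole lungs gave biotin-labelled cRNA. The values ran from 2.00 to 14.03 with array medians of 4.77 to 4.80, no 2 arrays were identical, and the labels and the table used here give no batch or scan date. The number of arrays limits the precision.

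Of 45101 probe sets, 64 controls were left out and 45037 tested; the probe annotation names 1 gene for 34945, several for 932 and none for 9160, and 34741 of the 34945 have a RefSeq entry. Groups came from the sample titles. A model of 6 group means was fitted (limma 3.58.1, R 4.3.3; lmFit, eBayes, two-sided, 12 residual and 4.30 prior degrees of freedom, Benjamini-Hochberg adjustment over 45037 probe sets, called under 0.05) in 11 comparisons. The members and lists were chosen with earlier results of these data known. Named besides the 10 members were up to 4 called genes per pathway list with the largest changes, the 3 genes nearest to each member called for resiquimod, and marker genes. A marker or list gene whose call rests on single arrays was named with the number of fits that lost it. Squamous transcripts mean a marker list more than 1 log2 unit above the lowest array. Alternatives were a replicate block, fits to the groups compared, leaving out each array, a filter at the 25th percentile on 3 arrays, probe sets averaged per gene, trend and robust moderation, array weights, centring on the brighter probe sets, omitting arrays with squamous transcripts, and other probe sets. The fit was tested on simulated data.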

Additional observations from a re-analysis of the deposited data

Results flagged for a closer look

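None of the 10 genes themselves was called in the interaction test of the resiquimod effect between strains. That test called 0.839% of all probe sets, so no call among 10 genes says little about them. In the surrounding lists, which hold many more genes, 8 were called. Values are the A/J change minus the C57BL/6 change on the log2 scale, limma adjusted p under 0.05. The interleukin-18 receptor chain Il18rap differed by -0.50, the interleukin-2 and interleukin-15 receptor chain Il2rb by -0.63 and the interferon-induced chemokine Cxcl9 by -1.16. Among cell type markers, the NK cell receptors Klrk1, Klre1 and Klra8 differed by -1.36, -1.70 and -4.20, the CD8 chain Cd8b1 by -1.14 and the monocyte Fc receptor Fcgr4 by -0.90. Klra8 read 2.29 to 2.66 in all A/J arrays, among the weakest signals, and 7.26 to 7.66 in C57BL/6 resiquimod arrays. Its difference thus sets a C57BL/6 rise beside a gene with no measurable signal in A/J, and gives no size for an A/J effect. The calls were gone in 13 of 18 refits without 1 array for Il18rap and Fcgr4, in 11 for Il2rb, in 10 for Cxcl9 and in 4 for Cd8b1, and in none for Klrk1 and Klre1. Most of the calls, including some of the NK cell receptors, were lost without the arrays with squamous transcripts. That fit leaves 1 A/J ovalbumin array.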

How the results depend on the processing

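Over 2871 refits of a member and comparison, 2704 kept direction and call, 18 lost a call, 20 gained one and 129 turned the sign of a value that was not called; no called value reversed. Centring on the brighter probe sets moved no comparison by more than 0.04. Leaving out 1 array in turn gave 0 to 1 members called for ovalbumin against PBS in each strain, 0 to 1 for A/J against C57BL/6 with ovalbumin and 0 to 1 for the strain difference in the resiquimod effect; resiquimod against ovalbumin kept 3 calls in A/J and 3 to 4 in C57BL/6. Omitting the 8 arrays with squamous transcripts left 10 arrays, with a lone A/J ovalbumin array and a lone C57BL/6 PBS array assumed to vary like the others. In that fit the A/J rises over ovalbumin were 2.22 for Tbx21, 0.92 for Eomes and 0.79 for Stat4. The A/J ovalbumin change of Il18r1 was -0.26. Differences between strains were 0.70 for Il12a with PBS and 0.82 for Il18 with ovalbumin. A fit to the groups compared called 2 between strains with PBS, where Il18 was added (limma adjusted p = 0.0332), and put the Ifng rise over PBS in C57BL/6 at an adjusted p of 0.0613. Other settings also moved Ifng over that line: 0.0501 with trend and robust moderation for the rise over PBS, and 0.0481 and 0.0486 with the dim filter and averaged probe sets for the rise over ovalbumin. With array weights Il12a was lower than PBS in C57BL/6 resiquimod lungs (-0.48, adjusted p = 0.0254). The replicate numbers were not treated as pairs, since the labels tie them to nothing shared and not every pair correlated: over 45 pairs of arrays with the same number the median correlation of deviations was 0.18 (-0.63 to 0.61; 27 over 0.1), against -0.13 for arrays with other numbers, and 9 of 18 arrays correlated best with their own number. With the replicate number as a block the Il12a strain difference in resiquimod lungs was called (0.44, adjusted p = 0.036), and no other member call changed.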
